A study of Mus musculus with 27 samples.

Results

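The genes described here code for the proteins that coat lipid droplets in the liver and for the enzyme and inhibitor that govern the first step of triglyceride breakdown. They are the perilipins Plin2, Plin4 and Plin5, the CIDE proteins Cidea, Cideb and Cidec, the lipase Pnpla2 and its inhibitor G0s2. Members were chosen by name: every probe on the Affymetrix mouse array that its annotation assigns to exactly 1 of these 8 symbols was taken. This gave 10 of the 34958 probes with a single symbol and 8 of the 18194 genes. Livers came from 27 male C57BL/6 mice, 10 weeks old, which were fed for 3 weeks before the RNA of each liver was hybridized to an array of its own (n = 3 per diet, 9 diets). AIN-93, a purified diet, served as control. The other diets were lab chow made of natural ingredients, a high-fructose diet labelled 60% fructose, a high-fat diet, a Western diet with 42% of calories from fat and high in saturated fat and sucrose, an atherogenic diet with fat, sucrose, cholesterol and cholic acid, a diet deficient in essential fatty acids (EFA-deficient), a low n-3 diet with 7% sunflower oil, and diet restriction at 75% of the chow amount that mice with free access ate. For the low n-3 group, title and diet tag speak of a DHA supplement, while the description and the study's methods name sunflower oil and a low n-3 diet, and the latter were followed. All mice were killed in the morning, and the study's methods state that they had not been fasted.

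A lipid droplet is a core of triglyceride and cholesterol ester under a single layer of phospholipid, and proteins on that layer decide how fast the stored fat is used. PLIN2 is the main perilipin of hepatocytes and is stable only while it sits on a droplet, PLIN5 links droplets to mitochondria in tissues that burn fat, and PLIN4 is found mainly in fat tissue and muscle. CIDE proteins let small droplets hand their lipid to larger ones, and CIDEB also takes part in loading very low density lipoprotein in hepatocytes. ATGL, the product of Pnpla2, removes the first fatty acid from triglyceride. The G0S2 protein binds ATGL and blocks it, and ABHD5 activates it. Many of these genes are known targets of PPARα, the nuclear receptor that turns on fatty acid oxidation in fasting.

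The deposited values are log2 intensities normalized with GCRMA. A probe was called detected when its mean exceeded log2(100), or 6.64, in at least 1 diet, and this value is called the detection level. Of the 10 probes, 6 were detected, and 5 of 8 genes had a detected probe (Cideb, Plin2, Plin5, G0s2 and Pnpla2), beside 6478 of the 18194 genes on the array. Detected probes of 1 gene were averaged. Differences are expressed as percent of control, and their 95% confidence intervals come from limma over all arrays. A call is an adjusted p under 0.05. For diets against control, p was adjusted over all 6478 genes and 8 diets together. The arrays were alike in overall signal, with medians of detected probes between 8.22 and 8.38. The hepatocyte markers were all detected (7 of 7). Of the adipocyte markers, Adipoq, Lep, Retn and Ucp1 did not exceed 2.53 on any array, so these transcripts were at or near the floor. That floor, 2.29, is the lowest value that all arrays share. Fabp4, which other cells also express, was the 1 adipocyte marker detected of 5 with a single-symbol probe, on a list of 7. Cfd and Plin1 had no such probe and were not measured here. The study reported CFD as induced on the Western and high-fat diets. The pancreas markers Ctrb1 and Cpa1 did not exceed 2.46. In whole liver, a lower value can come from fewer cells of a type or from less RNA per cell, and these cannot be told apart.

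Diet restriction was the diet on which Plin2 and G0s2 fell and Pnpla2 rose. The stretches just before the start sites of these 3 genes are shown because they are the members called in that comparison. Sequences are from RefSeq, build GRCm38.p6, and cover the 250 bases before the start site in the direction of transcription. The capitals in Plin2 mark a nuclear receptor half-site, AGGTCA or its reverse complement.
Plin2, chr4:86670060-86670309, minus strand: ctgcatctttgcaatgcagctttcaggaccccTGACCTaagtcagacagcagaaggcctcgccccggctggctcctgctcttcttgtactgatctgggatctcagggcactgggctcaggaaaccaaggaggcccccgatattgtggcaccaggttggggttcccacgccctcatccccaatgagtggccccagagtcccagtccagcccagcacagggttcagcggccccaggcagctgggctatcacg
G0s2, chr1:193273189-193273438, minus strand: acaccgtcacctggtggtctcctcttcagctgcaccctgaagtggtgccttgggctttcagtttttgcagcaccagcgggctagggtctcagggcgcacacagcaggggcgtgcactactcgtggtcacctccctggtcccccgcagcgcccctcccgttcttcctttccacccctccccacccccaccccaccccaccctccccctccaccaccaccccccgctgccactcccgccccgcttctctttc
Pnpla2, chr7:141454938-141455187, plus strand: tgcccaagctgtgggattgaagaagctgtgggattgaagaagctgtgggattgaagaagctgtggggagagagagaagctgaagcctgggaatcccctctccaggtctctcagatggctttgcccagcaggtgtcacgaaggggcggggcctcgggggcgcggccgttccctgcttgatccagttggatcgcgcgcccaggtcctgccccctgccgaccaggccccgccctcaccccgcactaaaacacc
Windows were found for 7 of 8 members, 9 in all, with none used for Cidea. The half-site in Plin2 lay 218 to 213 bases before the start, and 1 of the windows of Plin5 held it 170 to 165 bases before the start. Over all 32851 windows of this length, 14.0% held AGGTCA on either strand. The repeat AGGTCANAGGTCA, an exact form of the response element of PPAR, was in no window of a member and in 0.0335% of all windows. A match this rare was unlikely in 9 windows, so its absence does not show that a member lacks a PPAR element. The E-box CACGTG (6.02% of all windows) and the FoxO motif TGTTTAC (3.17%) were not found in a member's window either. The half-site is part of the PPAR element, so those matches are not independent.

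Plin2 fell under diet restriction and rose on the high-fat diet. Its intensities in the 3 control livers were 12.01, 12.97 and 12.71 on the log2 scale. Under diet restriction they were 10.76, 10.99 and 11.18, all below every other array of the series. On the high-fat diet they were 13.58, 13.17 and 13.28, all above control. Diet restriction therefore left 33.2% of the control level of Plin2 (interval 23.7 to 46.5, adjusted p = 9.3e-05), and the high-fat diet raised it to 171% (122 to 240.2, adjusted p = 0.039). The high-fat call was lost without AIN-93 replicate 1, the lowest control liver (141%, adjusted p = 0.21), without AIN-93 replicate 3 (adjusted p = 0.063), without high-fat replicate 1 (adjusted p = 0.13) and without high-fat replicate 3 (adjusted p = 0.066), and also when no filter on low signal was set (adjusted p = 0.11). On the Western diet the 3 livers differed widely, at 12.54, 13.20 and 13.77, and the mean was 152% of control (108 to 213, adjusted p = 0.11). Plin2 was 134% on the EFA-deficient diet (adjusted p = 0.30) and 132% on the high-fructose diet (adjusted p = 0.33), neither past the threshold. Lab chow, the atherogenic diet and the low n-3 diet gave 88.9% to 89.5% of control. In the order of diet means, high-fat was first and diet restriction last, and 7 of 8 neighbouring diets overlapped, all but lab chow and diet restriction, which lay 1.42 apart on the log2 scale.

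**Figure D1:**
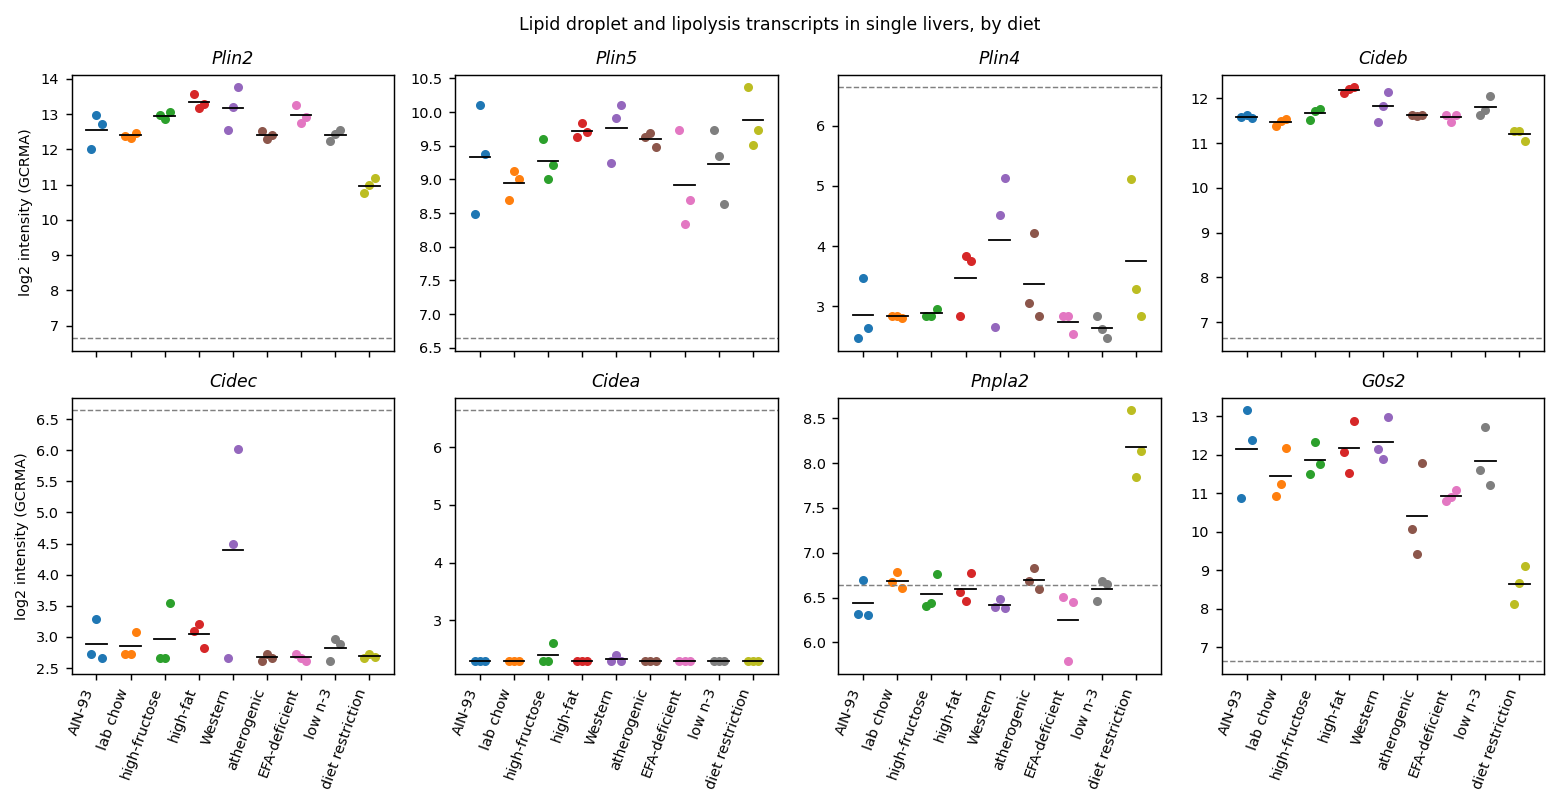
Log2 intensity (vertical axis, a separate scale in each panel) of the 8 genes in every liver, with the 9 diets along the horizontal axis. Points are the 3 arrays of a diet, the black bar is their mean, and a dashed line marks the detection level of 6.64. Diet restriction lies apart from other diets for Plin2, Pnpla2 and G0s2 and, by a narrow margin, for Cideb. Cidea, Cidec and Plin4 stay below the detection level on every array.

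Plin5 was moderately expressed and varied between mice of the same diet. Control livers were at 8.49, 10.11 and 9.37, a 3.08-fold range. Diet-restricted livers were at 10.37, 9.51 and 9.74, which overlapped control, and their mean was 146% of control (86.5 to 247, adjusted p = 0.39). None of the 8 diets passed the threshold against control, with values from 75.5% on the EFA-deficient diet to the 146% of diet restriction. All 8 pairs of neighbours in the order of diets overlapped. The 2 Plin5 probes, 1424937_at and 1441915_s_at, gave 148% and 144% under diet restriction, so they moved alike. Plin4 was not detected. Its probe lay below 4 in every diet but 3, and the higher values were 4.52 and 5.13 in Western replicates 2 and 3, 4.22 in atherogenic replicate 2 and 5.11 in diet restriction replicate 1, all under the detection level of 6.64. No fold is given for it.

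Of the 3 CIDE transcripts only Cideb was detected, and it rose on the high-fat diet. Control livers held Cideb within a narrow range of 11.55 to 11.62, and high-fat livers were at 12.12, 12.20 and 12.25. The high-fat livers did not overlap control, and Cideb rose to 152% of control (127 to 182, adjusted p = 0.0031). Diet-restricted livers were at 11.28, 11.27 and 11.05, below every other array of the series, the nearest being lab chow replicate 1 at 11.38. Their mean of 76.7% of control (64.0 to 91.9, adjusted p = 0.057) just missed the threshold. Western livers were spread from 11.48 to 12.14 and averaged 117% of control (adjusted p = 0.28). Without Western replicate 1 this became 132% (adjusted p = 0.036). Cideb overlaps the neighbouring genes Nop9 and Ltb4r2 in RefSeq, and its probe set is of the kind that can match more than 1 transcript. Cidea, a gene of brown fat, was at the shared lowest value on all but 2 arrays. Cidec, a gene of white fat that also rises in fatty liver, was at or under 3.54 on all arrays but Western replicates 2 and 3, which read 4.50 and 6.02, while Western replicate 1 read 2.66. These 2 livers also had the higher Plin4, Plin2, Plin5 and Cideb values of their diet.

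The lipase and its inhibitor moved in opposite directions under diet restriction. Pnpla2 read 8.59, 7.84 and 8.13 in diet-restricted livers and between 5.79 and 6.83 on every other array, so the groups did not overlap. It was 334% of control (259 to 432, adjusted p = 8.0e-07). The mean of control lay below the detection level, with 2 of 3 arrays under it, so the size is less certain, and against the detection level itself the restricted mean was 2.91-fold higher. Pnpla2 passed the filter through the means of diet restriction, the atherogenic diet and lab chow. Only its probe 1428143_a_at was detected, and the other, 1428591_at, stayed near 2.4 on all arrays. G0s2 read 8.13, 8.68 and 9.12 in diet-restricted livers against 10.88, 13.15 and 12.39 in control. Every restricted liver was below every other liver of the series, the nearest being atherogenic replicate 2 at 9.41, and the mean was 8.83% of control (3.9 to 20.0, adjusted p = 2.7e-04). Without AIN-93 replicate 1, the lowest control liver, it was 5.71% (adjusted p = 7.5e-05), and without AIN-93 replicate 2, the highest, 12.5% (adjusted p = 0.0032).

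G0s2 was the most variable of the 5 detected members. Its pooled standard deviation within diets was 0.75 on the log2 scale, larger than that of 98.7% of the 6478 genes, where the median gene had 0.18. The 3 control livers spanned 4.81-fold and the 3 atherogenic livers 5.20-fold. Atherogenic livers were at 10.08, 9.41 and 11.78, overlapping control, and averaged 30.4% (13.4 to 68.8, adjusted p = 0.059). This passed the threshold without AIN-93 replicate 1 (19.6%, adjusted p = 0.013) or without atherogenic replicate 3 (19.0%, adjusted p = 0.008). EFA-deficient livers were close together at 10.80, 10.89 and 11.07 and averaged 42.8% of control (18.9 to 96.9, adjusted p = 0.19), which passed narrowly without AIN-93 replicate 1 (27.7%, adjusted p = 0.0498). On the other 5 diets G0s2 was between 62.0% on lab chow and 114% on the Western diet, and none was called. Within-diet standard deviations were 0.48 for Plin5, 0.30 for Plin2, 0.22 for Pnpla2 and 0.15 for Cideb. AIN-93 replicate 1 was the lowest control liver for Plin2, Plin5 and G0s2, and AIN-93 replicate 2 the highest for the same 3 genes.

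**Figure D2:**
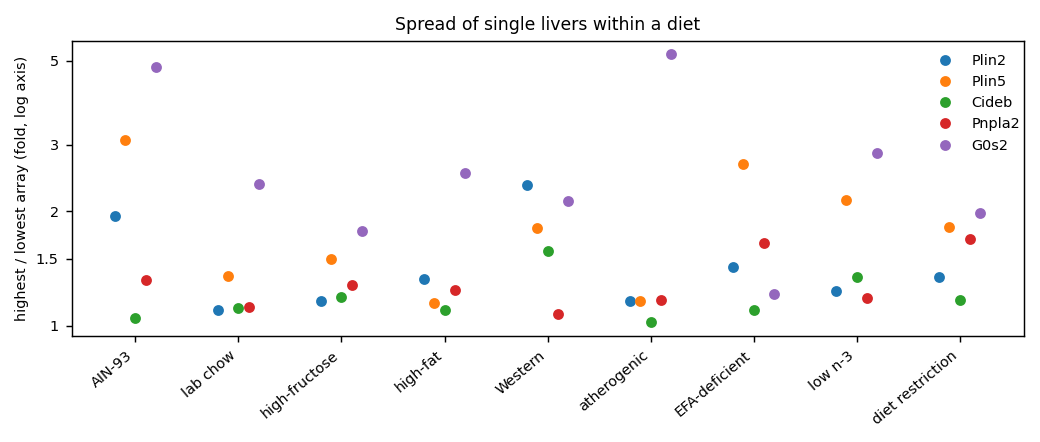
Fold between the highest and the lowest of the 3 livers of a diet (vertical axis, log scale) for the 5 detected genes, by diet. Each point is 1 gene on 1 diet, and G0s2 reaches 4.81-fold in control and 5.20-fold on the atherogenic diet while Cideb stays at or under 1.57-fold.

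Counted over the members, diet restriction called 3 of 5 against control, 1 higher and 2 lower, where 29.5% of all genes were called, 13.5% higher and 16.0% lower. The arrays did not overlap for 4 of 5, against 47.9% of all genes. The high-fat diet called 2 of 5, both higher, where 9.34% of all genes were called in either direction and 6.00% were called higher. No member was called on lab chow (4.21% of all genes), the high-fructose diet (3.91%), the Western diet (8.78%), the atherogenic diet (14.9%), the EFA-deficient diet (5.51%) or the low n-3 diet (1.07%). On the Western diet, Cideb and Plin2 were both called once replicate 1 was left out. The median of the 5 detected members was 132% of control on the high-fat diet, 76.7% under diet restriction, and between 87.6% and 117% on the other 6 diets. The same median over all genes was 96.7% to 102% in every diet. These diets share their control livers.

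**Figure D3:**
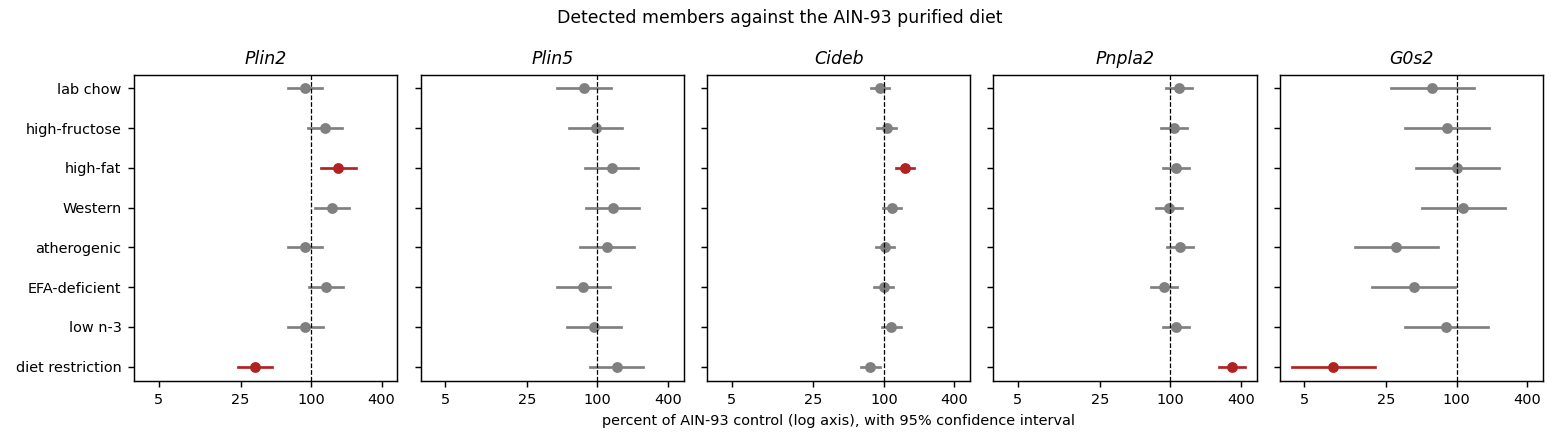
Percent of AIN-93 control (horizontal axis, log scale) for the 5 detected genes on 8 diets. Points are limma estimates from 3 livers per diet, lines are 95% confidence intervals, and red marks an adjusted p under 0.05: Plin2 and Cideb on the high-fat diet, and Plin2, Pnpla2 and G0s2 under diet restriction.

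Diet restriction used the chow of the lab chow group, so these 2 groups ate the same diet in different amounts. Diet restriction and AIN-93 differ in both the kind of diet and its amount, which that comparison cannot tell apart. Against lab chow, Plin2 and G0s2 fell and Pnpla2 and Plin5 rose. Plin2 was 37.3% of lab chow (26.6 to 52.4, adjusted p = 7.0e-05), G0s2 was 14.3% (6.3 to 32.3, adjusted p = 5.5e-04) and Pnpla2 was 282% (219 to 364, adjusted p = 1.3e-06), each adjusted over all genes of this comparison. Plin5 also passed, narrowly, at 191% of lab chow (113 to 322, adjusted p = 0.0497). Lab chow livers held Plin5 at 8.70, 9.13 and 9.00, and the restricted livers, given above, were all higher. The Plin5 call was lost when any of 5 single livers was left out: without lab chow replicate 1 (175%, adjusted p = 0.14), replicate 2 (adjusted p = 0.068) or replicate 3 (adjusted p = 0.088), or without diet restriction replicate 1 (160.4%, adjusted p = 0.21) or replicate 3 (adjusted p = 0.073). It was also lost under 8 of the other settings, with no filter on low signal at adjusted p = 0.14. Cideb was 82.8% (69.1 to 99.3, adjusted p = 0.097). In all, 4 of 5 members were called, 2 higher and 2 lower, where 36.8% of all genes were, 19.2% higher and 17.6% lower, and the arrays did not overlap for 5 of 5 against 48.0% of all genes. Lab chow livers against control showed G0s2 at 62.0% and Plin2 at 88.9%, neither called.

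The atherogenic and Western diets are both rich in fat and sucrose and differ in cholesterol and cholic acid. Plin2 was 58.8% of Western on the atherogenic diet (41.9 to 82.5, adjusted p = 0.028) and G0s2 was 26.6% (11.7 to 60.1, adjusted p = 0.023). These were 2 of 5 members, where 17.8% of all genes were called in either direction and 6.50% lower, and the arrays of 3 of 5 did not overlap against 32.8% of all genes. Neither call withstood leaving out Western replicate 3, the liver with the highest Plin2 and G0s2 (Plin2 72.4%, adjusted p = 0.20, and G0s2 33.2%, adjusted p = 0.12), nor atherogenic replicate 2 (Plin2 61.0%, adjusted p = 0.090, and G0s2 37.8%, adjusted p = 0.14). The Plin2 call was also lost without Western replicate 2 (adjusted p = 0.072) or atherogenic replicate 3 (adjusted p = 0.057), and the G0s2 call without atherogenic replicate 1 (adjusted p = 0.082). Without atherogenic replicate 3, the highest atherogenic liver, G0s2 was 16.6% of Western (adjusted p = 0.0028). With no filter on low signal both were lost, at adjusted p = 0.068 and 0.064. Without Western replicate 1, Cideb was called as well (77.9%, adjusted p = 0.037). Western and high-fat livers did not differ at the threshold in any member, where 4.26% of all genes were called. Cideb was 77.2% of high-fat on the Western diet (64.4 to 92.5, adjusted p = 0.097) and 69.0% without Western replicate 3 (adjusted p = 0.012).

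Kupffer cell markers moved with the comparison of the atherogenic and Western diets. Of 8 such markers 5 were detected. All 5 were called higher on the atherogenic than on the Western diet (Clec4f, Adgre1, Cd5l, Vsig4 and Csf1r), where 734 of 6478 genes were called higher. Against control, only Clec4f and Cd5l were called higher on the atherogenic diet. On the Western diet none was called against control, and the median of the 5 was 55.2% of control. Summed intensities were 6152 to 11187 in atherogenic livers and 1239 to 1997 in Western livers. Control livers lay at 2463 to 3266, lab chow livers at 1320.3 to 1745 and diet-restricted livers at 978 to 2382. The hepatocyte markers summed to 260794 to 276836 in atherogenic livers and 267068 to 304445 in Western livers. Clec4f was called lower than control both under diet restriction and on lab chow. No Kupffer cell marker was called between those 2 groups. Under diet restriction the hepatocyte marker Tat was called higher than control (364%, adjusted p = 0.0021), 1 of 7 hepatocyte markers called. The hepatocyte sum was 294996 to 332314 under diet restriction against 282262 to 290243 in control. Stab1, a marker of sinusoidal endothelium, was called lower than control under diet restriction (60.4%, adjusted p = 0.0029) and on the high-fat diet (71.9%, adjusted p = 0.048). It was also called lower on the Western diet and, together with Stab2, on lab chow. No endothelial marker was called between diet restriction and lab chow. Stab1 was 1 of 4 endothelial markers detected. Their sums were 528 to 790.4 under diet restriction, 575 to 735 on the high-fat diet, 494 to 585 on lab chow and 687 to 849 in control. Against lab chow, restricted livers had higher Tat (206%, adjusted p = 0.031) and Asgr1 (124%, adjusted p = 0.0461), and none of the 5 detected stellate cell markers was called in any comparison by limma, with 5 of 55 values at an unadjusted p under 0.05. The part of these markers' changes in the values of Plin2, G0s2, Pnpla2 and Cideb was not tested.

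**Figure D4:**
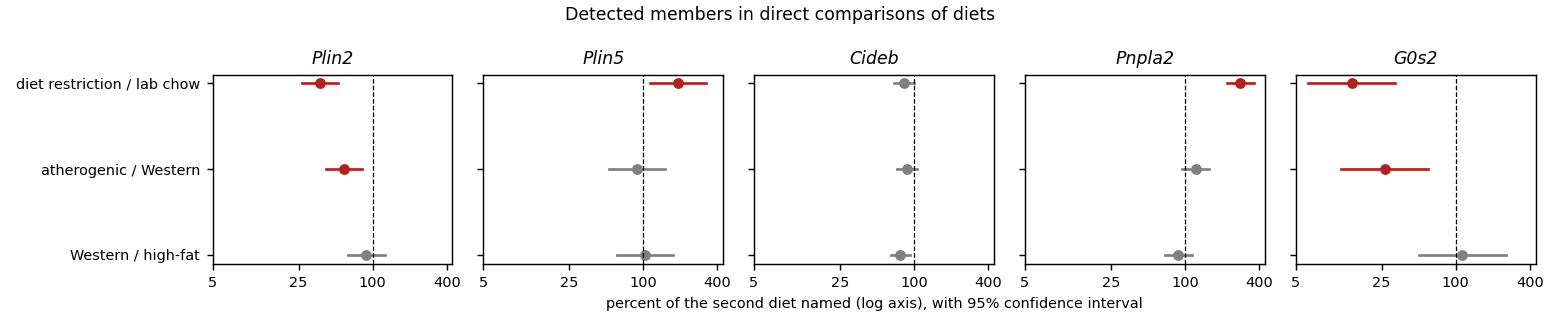
Percent of the second diet named (horizontal axis, log scale) for the 5 detected genes in 3 direct comparisons, with 95% confidence intervals from limma and 3 livers per diet. Red marks an adjusted p under 0.05, which 4 genes reach for diet restriction against lab chow, 2 for atherogenic against Western and none for Western against high-fat.

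The other genes of droplet coats and droplet assembly were followed as a list of 18, of which 15 were detected. Fitm1, an endoplasmic reticulum protein that partitions triglyceride into droplets, showed the largest called changes of the list. It read 10.06, 9.72 and 9.79 in high-fat livers and 6.00, 5.50 and 5.31 in diet-restricted livers, against 7.01, 8.54 and 8.55 in control. High-fat feeding raised it to 354% of control (169 to 739.7, adjusted p = 0.026), and diet restriction left it at least 2.62-fold lower than control (adjusted p = 0.0036) and at least 3.77-fold lower than lab chow (adjusted p = 1.2e-04). Atherogenic livers were at 26.1% of control (adjusted p = 0.018) and 10.4% of Western (4.98 to 21.8, adjusted p = 1.5e-04), with the atherogenic mean below the detection level and the size therefore less certain. Fitm1 thus ranged over the diets in the same order as Plin2 at its ends, high-fat first and diet restriction last.

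On the high-fat diet, 4 of 15 detected coat and assembly genes rose and none fell, where 6.00% of all genes were called higher, with a median of 99.2% of control beside 98.9% for all genes. Besides Fitm1 these were Mettl7b at 166% (adjusted p = 4.5e-04), the droplet hydrolase Ldah at 149% (adjusted p = 0.026) and Mettl7a1 at 135% (adjusted p = 0.0473). On the Western diet 4 rose, where 4.31% of all genes were called higher: the droplet dehydrogenase Hsd17b11 at 202% (adjusted p = 1.4e-04), Ldah at 184% (adjusted p = 0.0011), Mettl7a1 at 141% (adjusted p = 0.023) and Mettl7b at 131% (adjusted p = 0.0497). The atherogenic diet raised Hsd17b11 (192%, adjusted p = 3.2e-04) and Hsd17b13 (165%, adjusted p = 0.020). Against the Western diet it lowered Fitm2 to 47.8% (adjusted p = 0.0014) and Ldah to 62.9% (adjusted p = 0.0064) and raised the perilipin Plin3 to 162% (adjusted p = 0.014). On the EFA-deficient diet the acyl-CoA synthetase Acsl3, which seeds new droplets, rose to 293% (179 to 482, adjusted p = 0.0052). Under diet restriction Hsd17b11 (142%, adjusted p = 0.043) and Aup1 (128%, adjusted p = 0.031) rose. Against lab chow Hsd17b11 was not called (125%, adjusted p = 0.12), while Aup1 was (125%, adjusted p = 0.016). Lab chow, the high-fructose diet and the low n-3 diet called none of the 15.

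The other lipolysis genes were a list of 12, of which 10 were detected. Lipe, the hormone-sensitive lipase, and Hilpda, another inhibitor of ATGL, did not exceed 3.72 on any array. Abhd5, the activator of ATGL, was detected and was not called in any comparison. Under diet restriction 1 of 10 rose and 4 fell, where 13.5% of all genes were called higher and 16.0% lower, with a median of 69.0% of control beside 98.2% for all genes. Mgll, which splits the last fatty acid from glycerol, fell to 50.3% of control (35.2 to 71.8, adjusted p = 0.013), Aadac to 60.9% (adjusted p = 1.8e-04) and Ces1e to 64.2% (adjusted p = 0.025), while Ces1g rose to 232% (166 to 324, adjusted p = 0.0015). Against lab chow, 4 fell (Lipa, Ces1e, Ces1f and Aadac) and Ddhd2 rose to 197% (adjusted p = 0.0089). In that comparison 19.2% of all genes were called higher and 17.6% lower. Mgll (75.6% of lab chow, adjusted p = 0.22) and Ces1g (147%, adjusted p = 0.065) were not called there. Mgll rose to 193% with high-fat feeding (adjusted p = 0.017) and to 177% with the Western diet (adjusted p = 0.039). On the atherogenic diet Ces1e was 29.3% of Western (22.7 to 37.8, adjusted p = 1.1e-06) and Mgll 52.7% (adjusted p = 0.012). Pnpla3, a relative of Pnpla2, passed the filter only through the EFA-deficient diet, with a mean of 7.12 there and 4.05 in control, and those arrays overlapped. Its next highest mean was 6.62 on the high-fructose diet, under the detection level, so its levels are a description. The Ces1 genes are close paralogs whose probes may share signal.

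**Figure D5:**
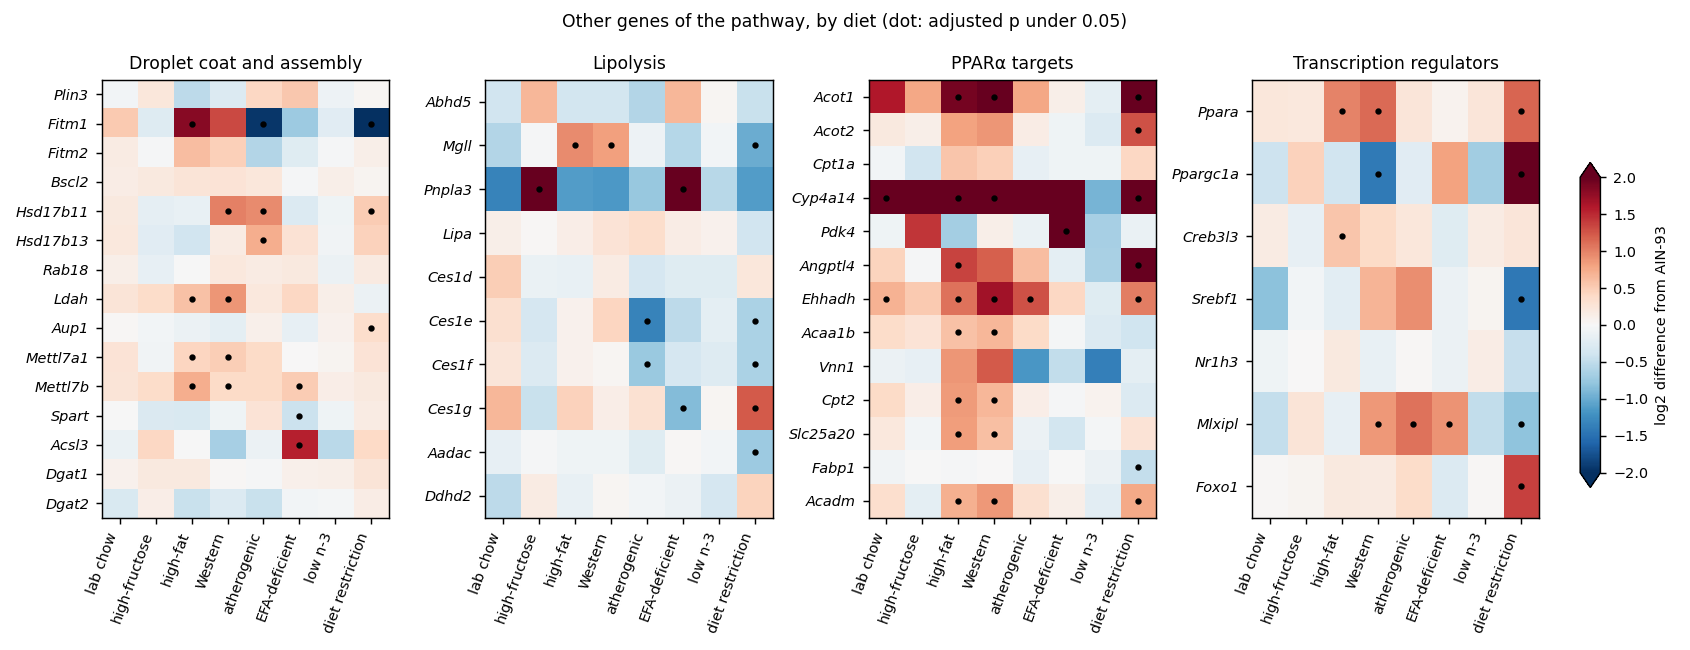
Log2 difference from AIN-93 control (color, clipped at 2 in either direction) for the detected genes of 4 lists (rows) on 8 diets (columns), as means of 3 livers per diet. A dot marks an adjusted p under 0.05 in limma, and differences of genes near the detection level are shown as fitted. Fitm1 is high on the high-fat diet and low on the atherogenic diet and under diet restriction. Acot1 carries dots on the high-fat and Western diets and under diet restriction, and Cyp4a14 carries dots on these and on lab chow. Pnpla3 entered the plot only through its EFA-deficient mean.

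Targets of PPARα were a list of 17, of which 13 were detected. On the high-fat diet 8 of 13 rose and none fell, where 6.00% of all genes were called higher, with a median of 178% beside 98.9% for all genes. On the Western diet 7 rose and none fell, where 4.31% of all genes were called higher, with a median of 183% beside 98.3%. Ehhadh, an enzyme of peroxisomal fatty acid oxidation, reached 211% (adjusted p = 7.4e-04) and 319.7% (adjusted p = 4.2e-06) on these diets, and Acot1, which frees fatty acids from CoA, reached 375% and 401% (adjusted p = 0.031 and 0.023). On lab chow 2 of 13 rose and none fell, where 4.21% of all genes were called in either direction. Cyp4a14 was 1986% of control there (421 to 9363, adjusted p = 0.013) and Ehhadh 161% (adjusted p = 0.026). The control mean of Cyp4a14 lay below the detection level, so its size is less certain. Under diet restriction 6 rose and 1 fell, where 13.5% of all genes were called higher and 16.0% lower. Angptl4, a secreted inhibitor of lipoprotein lipase, was 580.0% of control (317 to 1060, adjusted p = 3.3e-04) and Acot1 502% (adjusted p = 0.0087), while Fabp1, which carries fatty acids in the cell, fell to 71.7%. Plin2, also a known target, fell on the same diet. Acot1 was 165% of lab chow under diet restriction (adjusted p = 0.32) and was not called. Against lab chow, 4 rose (Acot2, Cyp4a14, Angptl4 and Acadm) and 3 fell, which were Acaa1b at 58.5% (adjusted p = 5.2e-04), Cpt2 at 63.4% (adjusted p = 0.0038) and Fabp1 at 75.2% (adjusted p = 1.8e-04), where 19.2% of all genes were called higher and 17.6% lower. Against Western livers, atherogenic livers had 4 of 13 lower (Vnn1, Slc25a20, Acadm and Cpt2), where 6.50% of all genes were called lower, with Vnn1 at 19.2% (adjusted p = 0.014). Acot2 passed the filter only through the means of the high-fat diet, the Western diet and diet restriction, so its rise is a description. Its control and lab chow means, 6.07 and 6.26, lay below the detection level. Acot1 and Acot2 are close paralogs and may share signal.

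Among the transcription regulators of droplet genes, a list of 8 with 7 detected, Ppara itself was called on 3 diets. It was 198% of control on the high-fat diet (adjusted p = 0.0010), 219.6% on the Western diet (adjusted p = 2.4e-04) and 224% under diet restriction (adjusted p = 1.8e-04). Under diet restriction the fasting regulators Ppargc1a, at least 4.3-fold higher (adjusted p = 2.4e-05), and Foxo1, at 256% (adjusted p = 1.8e-05) with a control mean below the detection level, rose. The lipogenic regulators Srebf1 (37.2%, adjusted p = 0.0065) and Mlxipl fell. In all, 3 of 7 were called higher and 2 lower under diet restriction, where 13.5% of all genes were called higher and 16.0% lower. Against lab chow, Ppargc1a, Foxo1 and Ppara rose and none fell, where 19.2% of all genes were called higher and 17.6% lower. Ppargc1a passed the filter only through the means of diet restriction and the EFA-deficient diet, so its rise under restriction is a description. It was called lower than control on the Western diet (37.3%, adjusted p = 0.011), with both diets below the detection level. Mlxipl rose on the Western (181%, adjusted p = 0.023), atherogenic (211%, adjusted p = 0.0047) and EFA-deficient (187%, adjusted p = 0.017) diets. Pparg was not detected by mean in any diet, and its highest array was Western replicate 3, at 7.24, the liver with the highest Cidec and Plin4.

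The genes whose values followed each member most closely over the 27 arrays were named by Pearson's r, as a description. The points share their diets, so the 3 diet-restricted livers were also left out. Nudt1 followed Plin2 at r = 0.92, and at 0.79 over the other 24 arrays. Inhbe, a secreted hepatokine subunit, followed G0s2 at 0.91 and 0.79, and Car3 at 0.88 and 0.70. Cryz followed Plin5 at 0.86 and 0.87, so this likeness did not rest on diet restriction. Eif2b2 followed Cideb at 0.84 and 0.81. Fam107a and Cux2 followed Pnpla2 at 0.93 each, but at 0.29 and -0.08 without diet restriction, so that likeness rested on the 3 restricted livers.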

How the data were processed

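Liver RNA of 27 mice was hybridized to Affymetrix mouse arrays, 1 per mouse. The authors deposited GCRMA-normalized log2 intensities, which were used unchanged. Probes were named by the platform annotation, and only those with exactly 1 symbol were used. Following the study's methods, probes had to exceed a mean of log2(100) on 1 or more diets. Each diet was compared with AIN-93 by limma 3.58.1 over all arrays (with R 4.3.3, the package data.table in version 1.17.8 and multcomp 1.4.28), with Benjamini-Hochberg adjustment over genes and 8 diets together at 0.05, and the 3 direct comparisons were adjusted on their own. A group with all 3 arrays under the detection level gives only a bound on the fold, set against that level, and the p beside it tests the fitted difference. No 2 arrays were identical. The number of arrays limits the precision of every value.

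The members and gene lists were chosen with earlier results of these data known, so lists are described by counts and medians without a test. Named genes are all members, up to 4 called genes per list and comparison with the largest log2 difference, any cell type marker, and up to 3 genes most like each detected member; others named beside a count of 5 or fewer were named after their values were seen. Some genes of the lists were not analysed here. Alternatives were other p adjustment, no filter or log2(200), array weights, a trend and robust prior, the compared diets alone, median centring, quantile normalization, a replicate block, Dunnett's test, other probe averages, and each array left out. The fit was tested on simulated data. Plots and tables used matplotlib 3.10.9, pandas 2.3.3 and numpy 2.4.6 on Python 3.11.15.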

Additional observations from a re-analysis of the deposited data

Results flagged for a closer look

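Signal above the control livers appeared in members that no comparison used, because their probes lay below the detection level on every array. Cidec reached 6.02 on the log2 scale in the highest Western liver, where control livers did not exceed 3.29. Plin4 reached 5.13 in the highest Western liver and 5.11 in the highest diet-restricted liver, where control livers did not exceed 3.47. In each case at least 1 other liver of the same diet lay below the highest control value.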

How the results depend on the processing

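The limits are 3 livers per diet, wide spread between control livers for G0s2, Plin5 and Plin2, and Pnpla2 levels at the detection level outside diet restriction. The counts of called members under diet restriction stayed at 3 against control with each array left out, and at 3 to 4 against lab chow. Against control, the high-fat count of 2 became 1 with no filter on low signal (Plin2 adjusted p = 0.11) and 1 to 2 with each array left out. With arrays left out, the count was 0 to 2 on the Western diet, 0 to 1 on the EFA-deficient diet and 0 to 1 on the atherogenic diet. The atherogenic count was 1 (G0s2) with p adjusted within each diet (adjusted p = 0.039) and with array weights (adjusted p = 0.012). Atherogenic against Western gave 1 with no filter, which was Cidec, a probe below the detection level on every array, and Plin2 (adjusted p = 0.068) and G0s2 (adjusted p = 0.064) were not called, and 0 to 3 with arrays left out. Western against high-fat gave 1 (Cideb) with p adjusted over the 3 direct comparisons together (adjusted p = 0.040) and with array weights (adjusted p = 0.020), and 0 to 1 with arrays left out. Cideb under diet restriction passed with p adjusted within each diet (0.019), the trend and robust prior (0.0487), array weights (0.0043) and Dunnett's test (0.035). Plin5 against lab chow lost its call under 8 settings, with adjusted p from 0.0535 to 0.14. The causes were not tested.

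The replicate numbers of the labels did not pair the livers: deviations of same-numbered livers correlated at -0.16 to 0.24, and no comparison had every correlation over 0.1. With a replicate block, the atherogenic count became 1 (G0s2 30.4%, adjusted p = 0.036), Cideb under diet restriction passed (adjusted p = 0.044) and Plin5 against lab chow did not (adjusted p = 0.060).

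The values that crossed 100% had no call in the reported fit. With array weights, G0s2 was 88.2% on the high-fat and 89.9% on the Western diet, and Pnpla2 104% on the Western diet. With arrays centred on their medians, Plin5 was 101% on the high-fructose diet, Pnpla2 101% on the Western diet and Cideb 99.5% on the atherogenic diet. With quantile normalization again, G0s2 was 98.8% on the high-fat and Pnpla2 102% on the Western diet. With the probe of highest mean, Plin5 was 102% on the high-fructose and 101% on the low n-3 diet. With each array left out, Cideb was 97.9% to 103% of control (EFA-deficient) and Plin2 73.4% to 102% (lab chow), 73.8% to 103% (atherogenic), 73.9% to 103% (low n-3) and 72.1% to 111% (Western against high-fat). Likewise G0s2 was 53.3% to 117% (high-fructose), 65.5% to 144% (high-fat), 73.9% to 162% (Western), 52.4% to 115% (low n-3) and 90.3% to 144% (Western against high-fat). Plin5 was 57.4% to 101% (lab chow), 72.3% to 127% (high-fructose), 98.6% to 173% (high-fat), 90.3% to 158% (atherogenic), 70.2% to 123% (low n-3), 74.9% to 101% (atherogenic against Western) and 90.8% to 122% (Western against high-fat). Pnpla2 was 98.9% to 117% (high-fructose), 93.6% to 107% (Western) and 80.1% to 103% (EFA-deficient).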
